A study of Mus musculus with 8 samples.

Results

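Mice with dextran sulfate sodium (DSS) colitis that had received an enema of either mesalazine or Kuiyangling were compared, as 1 pooled treated group, with mice that had DSS colitis and saline enemas. The treated group held 4 libraries, 2 from mesalazine and 2 from Kuiyangling, chosen by their treatment label and not by any measured value. The DSS model group held 2 libraries, so the comparison used 6 of the 8 libraries of the series, and the other 2, from mice that received saline enemas without DSS, served as a reference only. The mice were male, wild type and of the C57BL/6J strain, and their colonic mucosa was taken on day 7, from 2 animals per group. The model, mesalazine and Kuiyangling mice all drank 3% DSS. Every enema had a volume of 0.2 ml, with mesalazine at 50 mg/kg and Kuiyangling at 10 g/kg. With 2 animals per group, the p-values below measure the spread between these animals only.

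DSS is a sulfated polysaccharide that, taken in drinking water, breaks the epithelial barrier of the colon so that luminal bacteria reach the tissue, and the colitis that follows is a common model of ulcerative colitis. Injured epithelium and resident macrophages release chemokines such as Cxcl1 and Cxcl2, which draw in neutrophils, and cytokines such as tumour necrosis factor and interleukin 1 beta, many of them under the transcription factor NF-kB. Interferon gamma from lymphocytes adds a further set of induced genes, among them those of antigen presentation. Mesalazine is an aminosalicylate that is applied to the inflamed mucosa in ulcerative colitis, and Kuiyangling is a herbal formula given in these mice as an enema.

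All 8 libraries had similar depth, between 15560946 and 17843715 counts, with 15217 to 15689 genes detected. The floor of detection was set at 3 counts, which equal 0.149 to 0.212 CPM (counts scaled to library size, with TMM adjustment). Mesalazine replicate 1 stood apart. Ribosomal protein genes took 12.7% of its counts against 3.35% to 6.68% in the other libraries, and its mean Spearman correlation with the other libraries was 0.940, against 0.945 to 0.974 elsewhere. Libraries also differed in how their level, relative to the mean of all libraries, went with gene length: Spearman's rho over the tested genes was -0.096 and -0.43 in the model, -0.53 and 0.28 with mesalazine, -0.020 and 0.39 with Kuiyangling, and 0.44 and 0.27 in controls. With a correction for length edgeR called 0 genes, and the 88 named genes tested under it had the same direction. Colonic epithelium was evident in all libraries, where Epcam, which marks epithelial cells, ranged over the 6 DSS libraries from 2098 to 2942 CPM and the colonocyte carbonic anhydrase Car1 from 7816 to 12515 CPM. Hoxb13, a homeobox gene of the hindgut that is highest toward the distal colon, was uneven, at 19.9 and 175 CPM in controls, 12.9 and 2.98 CPM in the DSS model, 0.212 and 0.642 with mesalazine and 5.88 and 23.2 with Kuiyangling.

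No gene was called between treated and DSS model mucosa, and what follows describes how the libraries were ordered. All 4 treated libraries were below both model libraries for 6 of 13 neutrophil-attracting chemokines and growth factors and 8 of 20 cytokines. The same held for 11 of 25 interferon-stimulated genes and 9 of 20 genes of the unfolded protein response, where 6.99% of all genes were below. All 4 were above both for 9 of 20 circadian clock genes and 7 of 22 stem cell and Wnt genes, where 6.77% of all genes were. In bulk tissue a lower level can come from fewer cells of a type or from less RNA per cell, and these cannot be told apart here. With edgeR's quasi-likelihood test and Benjamini-Hochberg adjustment over 13381 tested genes, 0 genes passed an adjusted p of 0.05 (percent called 0.00 in each direction). The smallest adjusted p was 0.189. At an unadjusted p under 0.05 there were 768 genes, 403 lower in treated mice (3.01% of those tested) and 365 higher (2.73%). DESeq2 called 68 genes, 36 lower and 32 higher, edgeR without the filter on low counts called 104, 73 lower and 31 higher, and limma on the deposited FPKM called 0. The calls of DESeq2 and unfiltered edgeR shared 61 genes, among them 23 of the 24 genes described first. Those 24 were chosen by their edgeR p from the same counts, so this overlap is not independent evidence. Every gene value below is a level and an estimate from edgeR with its error, not a call.

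Separation of the libraries was counted as a description. All 4 treated libraries were below both model libraries for 1213 of 17353 genes in the table (6.99%) and above both for 1175 (6.77%). Among the tested genes these counts were 1038 (7.76%) and 1007 (7.53%). With a log2 change of at least 1 in the same direction for each treatment on its own, 128 tested genes were lower (0.957%) and 207 higher (1.55%). These counts moved with single libraries: 218 lower without DSS model 2 and 196 without mesalazine 1, and 313 higher without DSS model 1 and 608 without DSS model 2. Without mesalazine 1, the library that stood apart, 16.4% of all genes in the table were lower in the other 3 treated libraries and 15.9% higher. On that basis 8 of 13 neutrophil-attracting chemokines and growth factors, 10 of 20 cytokines and 11 of 25 interferon genes were lower. So were 8 of 15 antigen presentation genes and 12 of 20 unfolded protein response genes. Higher were 12 of 20 clock genes, 8 of 22 stem cell and Wnt genes and 8 of 20 glucocorticoid and fasting genes.

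The treatments were also set against the model one at a time, with the same 2 model libraries in both comparisons. edgeR called 0 genes for mesalazine, where 735 had an unadjusted p under 0.05, 370 lower (2.77%) and 365 higher (2.73%), and the smallest adjusted p was 0.203. For Kuiyangling edgeR called 0 genes, 476 had an unadjusted p under 0.05, 211 lower (1.58%) and 265 higher (1.98%), and the smallest adjusted p was 0.820. DESeq2 called 84 genes for mesalazine and 13 for Kuiyangling, and edgeR without the filter 104 and 11. Tested directly against each other, the treatments gave 0 calls with edgeR (smallest adjusted p 0.999), 254 genes at an unadjusted p under 0.05, 179 lower with Kuiyangling (1.34%) and 75 higher (0.560%), 0 calls with DESeq2 and 3 with edgeR without the filter.

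**Figure D1:**
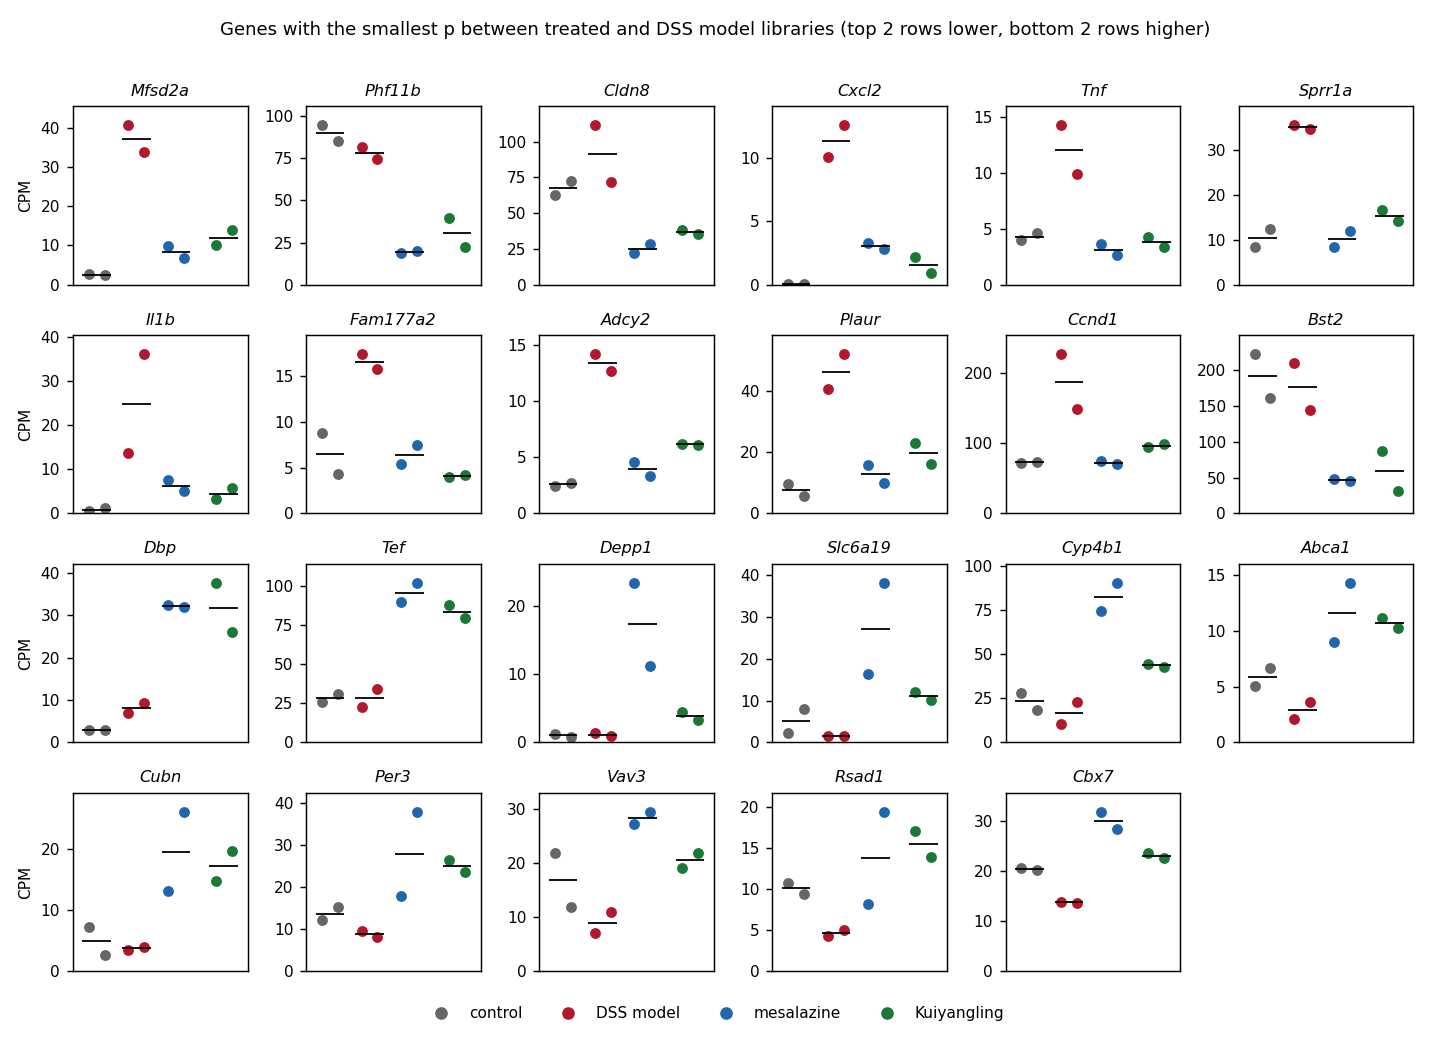
Level in CPM (linear axes from 0) of lower (upper rows) and higher (lower rows) genes with the smallest p between treated and DSS model libraries, 1 point per library and a bar at each group's mean. In each panel the 4 treated libraries lie on one side of both DSS model libraries, which was a condition for choosing the gene, while the control libraries lie at varied positions.

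The 24 genes with the smallest p, 12 in each direction, came from genes that averaged at least 5 CPM and whose treated and model libraries did not overlap. For that reason their separation is not a result, and the values describe them. Mfsd2a, which imports lysophospholipids carrying docosahexaenoic acid into cells, had the smallest p of all tested genes. Its level was 40.6 and 33.9 CPM in the DSS model, 9.91 and 6.83 with mesalazine, 10.1 and 13.9 with Kuiyangling and 2.68 and 2.34 in controls (log2 change -1.90, SE 0.25, edgeR adjusted p = 0.189). The treated libraries thus stood below the model and still above the controls. Cldn8, a claudin that seals the paracellular path to cations in the distal colon, stood at 111 and 71.7 CPM in the DSS model, 21.8 and 28.3 with mesalazine and 38.2 and 35.4 with Kuiyangling (log2 change -1.59, SE 0.24, edgeR adjusted p = 0.189). Controls held 62.4 and 72.8 CPM of Cldn8, near or within the model's range and above every treated library. Ccnd1, cyclin D1, which drives entry into the cell cycle, was at 227 and 149 CPM in the DSS model, 74.3 and 70.9 with mesalazine and 94.7 and 99.2 with Kuiyangling (log2 change -1.16, SE 0.23, edgeR adjusted p = 0.290), and controls, at 72.4 and 73.6 CPM, lay within the treated range.

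The rest of the 12 lower genes included an adenylyl cyclase, a small proline-rich protein and the urokinase receptor. Adcy2, the adenylyl cyclase, was at 14.2 and 12.7 CPM in the DSS model, 4.60 and 3.33 with mesalazine and 6.19 and 6.13 with Kuiyangling (log2 change -1.44, SE 0.27, edgeR adjusted p = 0.261). Sprr1a, a cornified envelope protein that squamous and wounded epithelia make, was at 35.5 and 34.7 CPM in the DSS model, 8.28 and 12.02 with mesalazine and 16.6 and 14.1 with Kuiyangling (log2 change -1.49, SE 0.25, edgeR adjusted p = 0.204). For Plaur, which binds urokinase at the cell surface and focuses plasmin there, the levels were 40.8 and 51.9 CPM in the DSS model, 15.8 and 9.92 with mesalazine and 23.1 and 16.2 with Kuiyangling (log2 change -1.54, SE 0.30, edgeR adjusted p = 0.261). Controls held 9.66 and 5.61 CPM of Plaur and 8.47 and 12.5 CPM of Sprr1a, so for these genes the control libraries were also under both model libraries. Fam177a2, whose role is little described, stood at 17.3 and 15.7 CPM in the DSS model, 5.38 and 7.41 with mesalazine and 3.96 and 4.15 with Kuiyangling (log2 change -1.69, SE 0.32, edgeR adjusted p = 0.261). The remaining genes of this set, Cxcl2, Tnf, Il1b, Bst2 and Phf11b, are described with their groups.

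**Figure D2:**
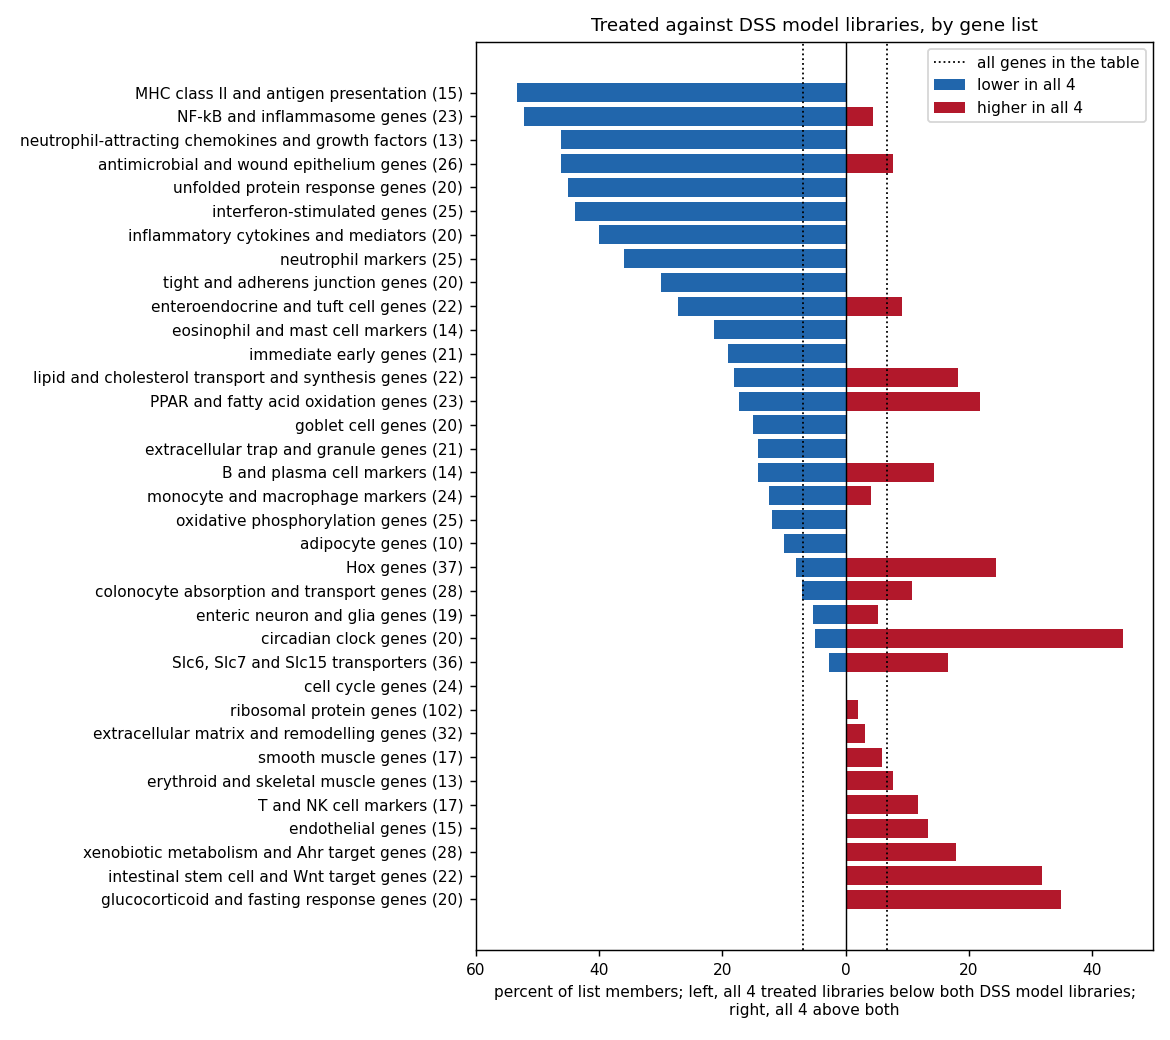
Percent of the members of each gene list (number in the count table in brackets) for which all 4 treated libraries were below both DSS model libraries (blue, left) or above both (red, right). Dotted lines mark the shares of all genes in the table, 6.99% and 6.77%, and the longest bars drawn are those of antigen presentation (8 of 15 lower) and of the circadian clock (9 of 20 higher).

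Some of the chemokines that attract neutrophils were lower in all 4 treated libraries. Of 13 such chemokines, growth factors and interleukins in the table, 6 were below both model libraries in all 4 treated libraries and 0 above. The share of all genes below was 6.99%. Of the 6, 4 were tested, the chemokines Cxcl1, Cxcl2, Cxcl5 and Ccl4, and the others did not pass the filter on low counts. The median log2 change of the 8 tested was -1.32, against 0.02 over all genes. Cxcl2, a ligand of the neutrophil receptor Cxcr2, stood at 10.1 and 12.5 CPM in the DSS model, 3.26 and 2.80 with mesalazine and 2.17 and 0.935 with Kuiyangling (log2 change -2.38, SE 0.37, edgeR adjusted p = 0.189). Controls had 2 counts of Cxcl2 in all, so every treated library was above them. Cxcl1, a ligand of the same receptor, was at 3.71 and 8.62 CPM in the DSS model, 2.34 and 1.23 with mesalazine and 2.10 and 1.40 with Kuiyangling (log2 change -1.80, SE 0.50, edgeR adjusted p = 0.580). Its highest treated library, at 2.34 CPM, was below the lower model library, at 3.71 CPM.

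Cxcl5, another Cxcr2 ligand, was lower mainly with mesalazine. Its levels were 4.28 and 6.56 CPM in the DSS model, 1.42 and 1.17 with mesalazine and 4.21 and 3.58 with Kuiyangling (log2 change -1.27, SE 0.38, edgeR adjusted p = 0.585), and the Kuiyangling libraries lay just under the lower model library. The log2 difference between Kuiyangling and mesalazine was 1.59 (SE 0.48, edgeR adjusted p = 0.999). Ccl4, a chemokine of monocytes and lymphocytes, was at 4.21 and 2.45 CPM in the DSS model, 0.708 and 1.05 with mesalazine and 0.805 and 0.312 with Kuiyangling (log2 change -2.25, SE 0.66, edgeR adjusted p = 0.584). Cxcl3 overlapped, at 2.83 and 1.72 CPM in the DSS model, 3.40 and 1.23 with mesalazine and 0.743 and 0.519 with Kuiyangling, with mesalazine 1 above both model libraries.

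Promoter sequence of Cxcl1 and Cxcl2 is shown because these neighbouring genes are both lower in treated mucosa and both windows hold matches of the NF-kB motif. The motif was searched as GGG and TTTCC with any 2 bases between them on both strands, in the 250 bases before the RefSeq start of each gene (GRCm38.p6), and the 130 bases below end at that start. They cover chr5:90891115-90891244, plus strand, and chr5:90903769-90903898, plus strand, written 5′ to 3′ with the matches in capitals.
Cxcl1: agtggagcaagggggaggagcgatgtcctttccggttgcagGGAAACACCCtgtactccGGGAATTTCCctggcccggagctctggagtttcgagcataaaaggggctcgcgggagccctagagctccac
Cxcl2: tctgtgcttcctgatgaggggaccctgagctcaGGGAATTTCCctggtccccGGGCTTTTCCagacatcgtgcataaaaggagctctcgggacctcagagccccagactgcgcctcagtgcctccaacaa
Each window holds 2 matches. Of the chemokine list, 4 of the 9 genes with a window had at least 1 match (44.4%), against 194 of 13606 genes of the table (1.43%). In the cytokine list it was 1 of 17 (5.88%), and in the NF-kB and inflammasome list 5 of 18 (27.8%). Of the 10 listed genes with a match, 4 were lower in all 4 treated libraries and 6 overlapped with the model. A match describes the letters of the window only.

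Cytokines and other mediators of inflammation were counted in the same way. Of 20 in the table, 8 were lower in all 4 treated libraries and 0 higher, where 6.99% and 6.77% of all genes were. Each of the 18 tested estimates was below 0, with a median of -1.20 that was -0.55 without DSS model 2. Il1b, the inflammasome-processed cytokine, stood at 13.7 and 36.1 CPM in the DSS model, 7.50 and 5.08 with mesalazine, 3.34 and 5.71 with Kuiyangling and 0.595 and 1.17 in controls (log2 change -2.22, SE 0.41, edgeR adjusted p = 0.261). Its model libraries differed from each other more than the treated libraries did. Tnf, tumour necrosis factor, was at 14.3 and 9.95, 3.61 and 2.63, 4.27 and 3.37 and 3.96 and 4.62 CPM in the same order (log2 change -1.81, SE 0.30, edgeR adjusted p = 0.204). The treated libraries of Tnf lay at the level of the controls.

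Members of the interleukin 6 family varied. Lif, a cytokine of that family, was at 10.1 and 8.49 CPM in the DSS model, 3.11 and 3.27 with mesalazine and 3.90 and 3.53 with Kuiyangling (log2 change -1.43, SE 0.33, edgeR adjusted p = 0.502), and Osm, oncostatin M, at 0.881 and 2.39 CPM in the DSS model, 0.283 and 0.525 with mesalazine and 0.495 and 0.156 with Kuiyangling (log2 change -2.15, SE 0.68, edgeR adjusted p = 0.597). Both were lower in all 4 treated libraries. Il6 itself was low and overlapped, at 0.566 and 1.79 CPM in the DSS model, 0.495 and 0.525 with mesalazine and 0.309 and 0.571 with Kuiyangling, and had 36 counts in the model against 32 in the treated libraries, a model-to-treated ratio of 2.42 per library size (95% counting interval 1.46 to 4.03).

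Nos2, the inducible nitric oxide synthase, was at 130.2 and 62.1 CPM in the DSS model, 12.7 and 31.9 with mesalazine and 45.6 and 26.3 with Kuiyangling (log2 change -1.76, SE 0.54, edgeR adjusted p = 0.585). All 4 treated libraries of Nos2 lay below both model libraries. Ptgs2, the inducible cyclooxygenase, overlapped, at 4.84 and 18.03 CPM in the DSS model, 2.90 and 4.26 with mesalazine and 7.30 and 6.44 with Kuiyangling, and its estimate of -1.20 was 0.036 without DSS model 2. Ifng, which encodes interferon gamma, had 55 counts in the model and 2 in the 4 treated libraries, a ratio of 59.2 (95% counting interval 15.6 to 501). The model counts of Ifng came mainly from DSS model 2, at 3.38 CPM against 0.252 CPM in DSS model 1.

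Transcripts of neutrophils themselves came next. Of 25 neutrophil markers 9 were lower in all 4 treated libraries and 0 higher, where 6.99% and 6.77% of all genes were. The median log2 change over the 20 tested was -1.50, with 18 estimates below 0 and 2 above. Ly6g, an antigen of neutrophils, was 1 of those above 0 and overlapped with the model (log2 change 0.89, edgeR adjusted p = 0.9999). Cd177 also overlapped (log2 change -0.25, edgeR adjusted p = 0.9999). Without mesalazine 1, 15 of the 25 were lower in the other 3 treated libraries, where 16.4% of all genes were. Csf3r, the receptor of granulocyte colony-stimulating factor, was at 3.02 and 3.12 CPM in the DSS model, 0.283 and 0.584 with mesalazine and 0.619 and 0.260 with Kuiyangling (log2 change -2.79, SE 0.53, edgeR adjusted p = 0.261). Clec4e, a C-type lectin receptor of myeloid cells, was at 1.70 and 3.78 CPM in the DSS model, 0.495 and 0.292 with mesalazine and 0.371 and 0.363 with Kuiyangling (log2 change -2.83, SE 0.54, edgeR adjusted p = 0.327). Their treated libraries did not reach the model's range.

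The calprotectin subunits were uneven within mesalazine. S100a8 stood at 9.62 and 18.4 CPM in the DSS model, 9.27 and 3.56 with mesalazine and 2.79 and 2.23 with Kuiyangling (log2 change -1.80, SE 0.44, edgeR adjusted p = 0.502) and S100a9 at 10.9 and 21.02 CPM in the DSS model, 10.9 and 2.86 with mesalazine and 3.65 and 2.23 with Kuiyangling (log2 change -1.83, SE 0.51, edgeR adjusted p = 0.580). In both, mesalazine 1 came close to DSS model 1, while the other 3 treated libraries lay between 2.23 and 3.65 CPM. Cxcr2, the chemokine receptor, had 25 counts in the model and 3 in the treated libraries, a ratio of 17.9 (95% counting interval 5.47 to 92.8). Lcn2, a siderophore-binding protein that epithelium makes as well as neutrophils, overlapped, at 6.98 and 14.2 CPM in the DSS model, 58.4 and 3.97 with mesalazine and 9.10 and 3.12 with Kuiyangling, with an estimate of 0.38 that turned to -1.12 without mesalazine 1.

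Genes of extracellular traps, the chromatin webs that neutrophils release, could be read only in part. Of 21 in the table, 3 were lower in all 4 treated libraries (14.3%, against 6.99% of all genes). The median of the 14 tested was -0.09, which was -0.25 without DSS model 1 and -0.32 without Kuiyangling 1. For Padi4, the peptidyl arginine deiminase of neutrophils, 3 counts were found in the model and 0 in treated mice, and for Elane, neutrophil elastase, 1 and 0, so that neither group passed the floor. Mmp9, the gelatinase of neutrophil granules, was at 1.89 and 3.51 CPM in the DSS model, 0.849 and 0.350 with mesalazine and 1.30 and 0.208 with Kuiyangling (log2 change -2.02, SE 0.66, edgeR adjusted p = 0.636), and its treated libraries were all below the model.

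Genes of NF-kB signalling had a smaller median difference. Of 23 in the table, 12 were lower in all 4 treated libraries and 1, Tlr2, was higher, where 6.99% and 6.77% of all genes were. The median log2 change was -0.39. Bcl3, a nuclear IkB protein, was at 97.4 and 58.5 CPM in the DSS model, 22.6 and 32.1 with mesalazine and 39.6 and 43.8 with Kuiyangling (log2 change -1.21, SE 0.30, edgeR adjusted p = 0.502). Zc3h12a, the ribonuclease Regnase-1 that degrades cytokine mRNA, was at 93.5 and 58.7 CPM in the DSS model, 26.3 and 35.1 with mesalazine and 35.8 and 42.002 with Kuiyangling (log2 change -1.14, SE 0.29, edgeR adjusted p = 0.517). Nfkbia, the inhibitor that NF-kB induces on itself, was at 95.7 and 113 CPM in the DSS model, 84.997 and 70.7 with mesalazine and 83.1 and 61.8 with Kuiyangling (log2 change -0.48, SE 0.23, edgeR adjusted p = 0.924). These 3 genes and Tnfaip3, another induced inhibitor of the pathway, had no overlap between treated and model libraries. Of the subunit genes, Rela was also lower in all 4 treated libraries (log2 change -0.22, edgeR adjusted p = 0.9999), and Nfkb1, Nfkb2, Rel and Relb overlapped. Nlrp3, the inflammasome sensor, had 27 counts in the model and 13 in the treated libraries (ratio 4.47, 95% counting interval 2.23 to 9.44).

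Antimicrobial and wound epithelium genes were split. Of 26 in the table, 12 were lower in all 4 treated libraries and 2, Mmp7 and Itln1, were higher, where 6.99% and 6.77% of all genes were. The median of the list was -0.61. Duoxa2, the maturation factor of the hydrogen peroxide-producing oxidase Duox2, was at 311 and 192 CPM in the DSS model, 84.6 and 73.4 with mesalazine and 135 and 78.2 with Kuiyangling (log2 change -1.45, SE 0.37, edgeR adjusted p = 0.514). Trim15, an E3 ligase of the TRIM family, was at 161 and 183 CPM in the DSS model, 37.2 and 52.3 with mesalazine and 88.4 and 39.9 with Kuiyangling (log2 change -1.68, SE 0.41, edgeR adjusted p = 0.502), and Tgm2, tissue transglutaminase, at 168 and 189 CPM in the DSS model, 80.1 and 78.9 with mesalazine and 125 and 72.2 with Kuiyangling (log2 change -1.01, SE 0.25, edgeR adjusted p = 0.502). The lowest model library exceeded the highest treated library for all of these genes.

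The bactericidal lectin Reg3g gave a different picture, at 4142 and 3085 CPM in the DSS model, 8502 and 1177 with mesalazine and 1822 and 796 with Kuiyangling. Mesalazine 1 held more Reg3g than either model library while the other 3 treated libraries held less, and the estimate was -0.52 (SE 0.64, edgeR adjusted p = 0.9999). Clca4b, a member of the chloride channel regulator family of the surface epithelium, was at 678 and 589 CPM in the DSS model, 503 and 366 with mesalazine and 472 and 254 with Kuiyangling (log2 change -0.67, SE 0.29, edgeR adjusted p = 0.843). Its treated libraries were below the model and far above the controls, at 34.2 and 36.5 CPM. Mmp13, collagenase 3, was at 20.4 and 84.5 CPM in the DSS model, 22.7 and 9.11 with mesalazine and 17.9 and 12.9 with Kuiyangling (log2 change -1.74, SE 0.49, edgeR adjusted p = 0.580), with mesalazine 1 between the 2 model libraries and the other 3 treated libraries below both.

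Interferon-stimulated genes had lower estimates throughout. All 25 tested members had an estimate below 0, with a median of -1.09 that was -1.72 with mesalazine and -0.66 with Kuiyangling. Of the 25, 11 were below both model libraries in all 4 treated libraries, where 6.99% of all genes were. The median level of the list in Kuiyangling 1, at -0.16 relative to the model mean, lay between the 2 model libraries, at 0.25 and -0.25. It was -2.62 in mesalazine 1, -0.98 in mesalazine 2 and -1.61 in Kuiyangling 2. Bst2, tetherin, which holds enveloped viruses at the cell surface, stood at 209 and 145 CPM in the DSS model, 48.1 and 44.8 with mesalazine and 87.4 and 31.3 with Kuiyangling (log2 change -1.75, SE 0.36, edgeR adjusted p = 0.341). Controls held 222 and 161 CPM of Bst2, at the level of the model, so that the treated libraries were below both reference groups. Igtp, a GTPase of the immunity-related family, was at 163 and 156 CPM in the DSS model, 13.7 and 42.3 with mesalazine and 65.1 and 29.1 with Kuiyangling (log2 change -2.14, SE 0.60, edgeR adjusted p = 0.580). Its control libraries, at 67.98 and 376 CPM, lay above and below the model, and every treated library was below both reference groups.

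The chemokines that interferon gamma induces were uneven within the model. Cxcl10, a ligand of Cxcr3, a chemokine receptor of T cells, was at 7.74 and 41.1 CPM in the DSS model, 0.637 and 5.31 with mesalazine and 2.29 and 2.75 with Kuiyangling (log2 change -3.14, SE 0.94, edgeR adjusted p = 0.584). Cxcl9, a ligand of the same chemokine receptor, was at 7.48 and 42.03 CPM in the DSS model, 5.10 and 5.66 with mesalazine and 3.03 and 5.09 with Kuiyangling (log2 change -2.40, SE 0.70, edgeR adjusted p = 0.580). In both genes DSS model 2 exceeded DSS model 1 by a wide margin, yet DSS model 1 also lay above every treated library. Among treated libraries, Kuiyangling 1 was highest for Igtp and Bst2.

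Phf11b, a PHD finger gene, was second by p among the lower genes. It was at 81.95 and 74.9 CPM in the DSS model, 18.5 and 20.02 with mesalazine, 39.3 and 22.1 with Kuiyangling and 94.6 and 85.2 in controls (log2 change -1.69, SE 0.25, edgeR adjusted p = 0.189). Its neighbour and near relative Phf11a was at 13.8 and 5.11 CPM in the DSS model, 0.495 and 1.11 with mesalazine and 2.23 and 0.831 with Kuiyangling (log2 change -3.08, SE 0.50, edgeR adjusted p = 0.199), and reads could be shared among such close copies. Both were below both model libraries in all 4 treated libraries, while Phf11b in controls was at the level of the model or above.

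Promoter windows of Bst2, Igtp, Cxcl10 and Phf11b are shown because these genes were lower together and each holds the interferon-stimulated response element motif, searched as GAAA repeated after any 2 bases, on both strands. This pattern shares the letters GAAA with the reverse complement of the NF-kB motif, so matches of both can overlap. The windows are chr8:71537523-71537662, minus strand, chr11:58199416-58199555, plus strand, chr5:92349000-92349139, minus strand, and chr14:59341331-59341470, minus strand (RefSeq, GRCm38.p6), each 140 bases long and lying before the gene's start, 5′ to 3′ with matches in capitals.
Bst2: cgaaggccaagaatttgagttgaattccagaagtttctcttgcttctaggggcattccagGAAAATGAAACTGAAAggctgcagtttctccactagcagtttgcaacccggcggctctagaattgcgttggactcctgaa
Igtp: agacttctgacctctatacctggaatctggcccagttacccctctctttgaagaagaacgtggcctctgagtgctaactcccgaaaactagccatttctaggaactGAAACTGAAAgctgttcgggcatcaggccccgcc
Cxcl10: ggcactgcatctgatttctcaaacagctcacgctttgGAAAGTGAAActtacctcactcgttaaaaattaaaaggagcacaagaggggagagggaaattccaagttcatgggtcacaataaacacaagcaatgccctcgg
Phf11b: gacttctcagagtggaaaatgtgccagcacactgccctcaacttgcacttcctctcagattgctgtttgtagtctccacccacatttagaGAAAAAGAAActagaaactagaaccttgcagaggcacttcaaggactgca
Bst2 holds 2 overlapping matches and the other windows 1 each. Of 19 listed interferon genes with a window, 11 had the motif in their 250 bases (57.9%), against 371 of 13606 genes (2.73%). Of these 11 genes 5 were lower in all 4 treated libraries, and 6 overlapped with the model (Stat2, Isg15, Ifit1, Ifit3, Oas1a and Rsad2).

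Antigen presentation genes, which interferon also induces, were counted next. Of 15 genes 8 were lower in all 4 treated libraries and 0 higher, where 6.99% and 6.77% of all genes were. Their median was -0.73. Tap1, which pumps peptides into the endoplasmic reticulum for MHC class I, was at 237 and 219 CPM in the DSS model, 58.95 and 84.9 with mesalazine and 136 and 64.7 with Kuiyangling (log2 change -1.42, SE 0.41, edgeR adjusted p = 0.580). Psmb9, a subunit of the immunoproteasome, was at 120.2 and 125 CPM in the DSS model, 51.9 and 43.1 with mesalazine and 73.2 and 38.5 with Kuiyangling (log2 change -1.25, SE 0.35, edgeR adjusted p = 0.580). The class II gene H2-Ab1 was at 46.9 and 78.8 CPM in the DSS model, 37.1 and 35.4 with mesalazine and 44.01 and 34.8 with Kuiyangling (log2 change -0.73, SE 0.74, edgeR adjusted p = 0.9999). Controls differed widely in H2-Ab1, at 22.6 and 413 CPM.

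**Figure D3:**
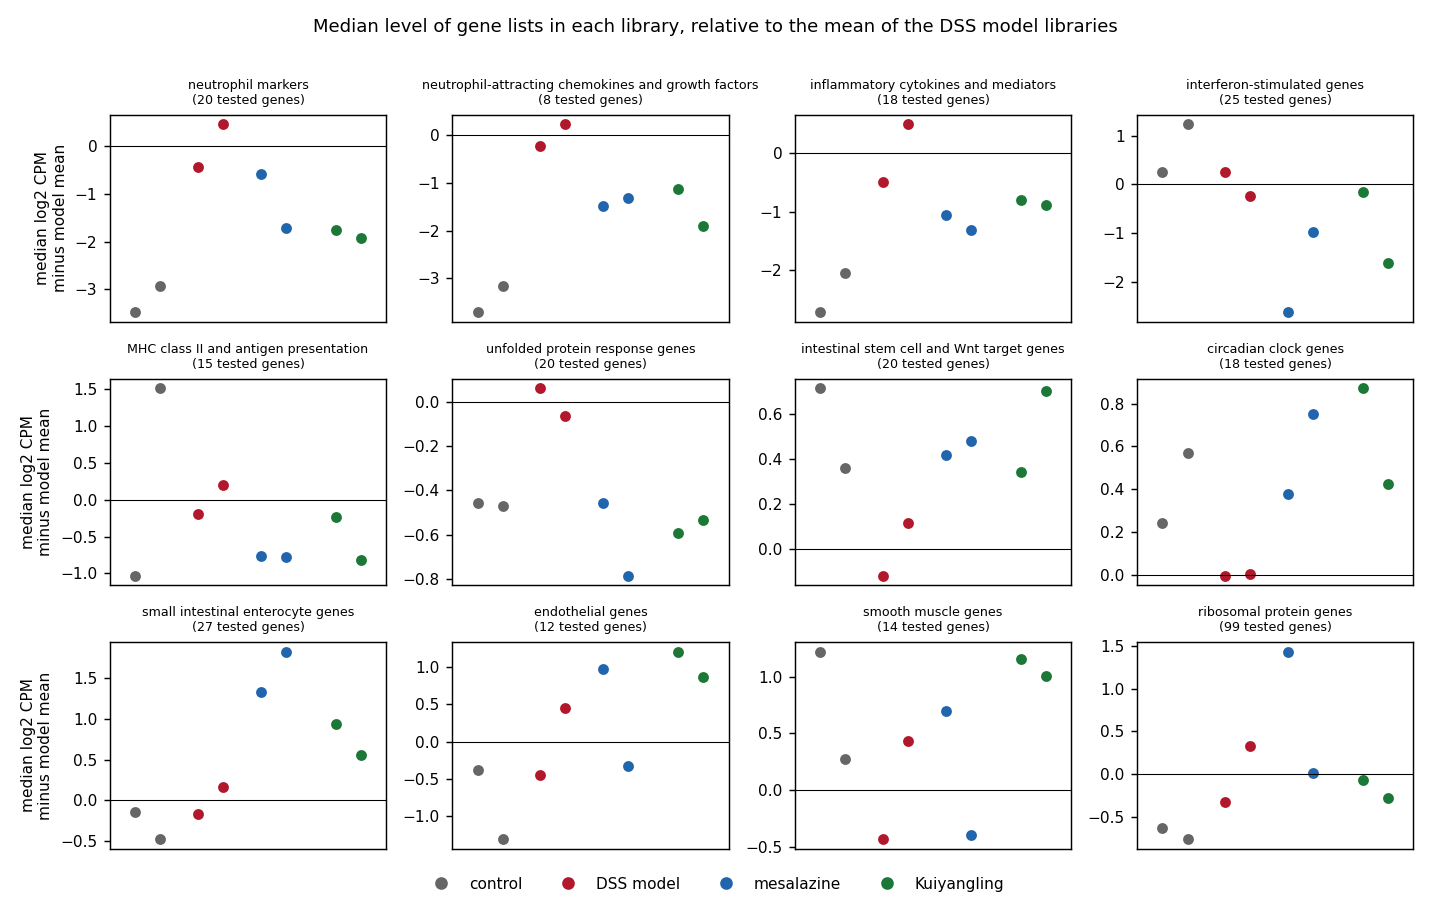
Median over the tested members of 12 gene lists of the log2 CPM in each library minus the mean of the 2 DSS model libraries, 1 point per library, with the line at 0 marking the model mean. The chemokine, cytokine and unfolded protein response medians of all 4 treated libraries lie below both model libraries, and the clock and small intestinal medians lie above both. The interferon, smooth muscle, endothelial and ribosomal protein medians overlap.

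Genes of the unfolded protein response, which expands the folding capacity of the endoplasmic reticulum, had 16 of 20 estimates below 0. Of these 20 genes 9 were lower in all 4 treated libraries and 0 higher, where 6.99% and 6.77% of all genes were. The median log2 change was -0.60. Hspa5, the chaperone BiP, was at 723 and 563 CPM in the DSS model, 369 and 332 with mesalazine and 334 and 411 with Kuiyangling (log2 change -0.83, SE 0.24, edgeR adjusted p = 0.580). Creld2, a disulfide isomerase-like protein of stressed endoplasmic reticulum, was at 67.99 and 71.1 CPM in the DSS model, 50.3 and 25.6 with mesalazine and 31.4 and 34.1 with Kuiyangling (log2 change -0.98, SE 0.27, edgeR adjusted p = 0.580), and Calr, calreticulin, at 1193 and 617 CPM in the DSS model, 478 and 356 with mesalazine and 487 and 522 with Kuiyangling (log2 change -0.98, SE 0.30, edgeR adjusted p = 0.585). The treated libraries of Hspa5, at most 411 CPM, were at the level of the controls, at 406 and 365 CPM.

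Smaller groups of epithelial genes were split. Of 20 junction genes 6 were lower in all 4 treated libraries and 0 higher (median -0.27), where 6.99% and 6.77% of all genes were. The lower ones included Cldn23, a claudin of the colonic surface epithelium, at 99.8 and 96.7 CPM in the DSS model, 51.9 and 64.4 with mesalazine and 77.5 and 62.5 with Kuiyangling (log2 change -0.62, SE 0.28, edgeR adjusted p = 0.873). Of 22 enteroendocrine and tuft cell genes 6 were lower (27.3%) and 2 higher (9.09%, near the 6.77% of all genes). Estimates were below 0 for 11 and above 0 for 10, and the median of -0.02 was 0.059 without mesalazine 2. Trpm5, the taste cation channel of tuft cells, was at 5.79 and 6.63 CPM in the DSS model, 4.03 and 3.44 with mesalazine and 2.60 and 2.75 with Kuiyangling (log2 change -0.97, SE 0.35, edgeR adjusted p = 0.715), and Avil, an actin-bundling protein of tuft cells, at 6.73 and 5.50 CPM in the DSS model, 2.55 and 3.74 with mesalazine and 3.53 and 2.54 with Kuiyangling (log2 change -0.98, SE 0.38, edgeR adjusted p = 0.756). The other lower members were Il25, Sh2d6, Alox5 and Siglecf, which tuft cells express, the last 2 also leukocytes. The higher ones, Neurod1 and Pax4, encode endocrine transcription factors.

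Circadian clock genes had 13 of 18 tested estimates above 0. Of 20 in the table, 9 were higher in all 4 treated libraries and 1 was lower, where 6.77% and 6.99% of all genes were, and the median log2 change was 0.60. The higher ones included Dbp, Tef, Hlf, Per1, Per2, Per3, Cry2 and Ciart, and the lower one was Arntl. Clock and Arntl proteins activate the Per, Cry and Dbp genes through E-box sequences, and Dbp, Tef and Hlf are the output factors that act on D-boxes. The hour of sampling is not in the labels, so a shared difference in time of day cannot be told apart from the treatment.

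Dbp stood at 6.98 and 9.41 CPM in the DSS model, 32.3 and 31.9 with mesalazine, 37.5 and 26.1 with Kuiyangling and 2.87 and 2.90 in controls (log2 change 1.96, SE 0.28, edgeR adjusted p = 0.189). The mesalazine and Kuiyangling estimates for Dbp were 1.97 and 1.95 against the same model libraries. Tef was at 22.8 and 34.2 CPM in the DSS model, 89.8 and 102 with mesalazine and 87.95 and 79.4 with Kuiyangling (log2 change 1.65, SE 0.26, edgeR adjusted p = 0.198), with controls at 25.7 and 31.1 CPM. The controls of Dbp and Tef lay at or below the model, far from the treated libraries. Hlf had 1 count in the model and 33 in the treated libraries, a model-to-treated ratio of 0.0652 (95% counting interval 0.00160 to 0.390).

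The period and cryptochrome genes had another relation to the controls. Per3 was at 9.50 and 8.22 CPM in the DSS model, 17.9 and 37.8 with mesalazine and 26.6 and 23.6 with Kuiyangling (log2 change 1.58, SE 0.33, edgeR adjusted p = 0.382) and Cry2 at 13.6 and 8.95 CPM in the DSS model, 29.02 and 27.96 with mesalazine and 27.4 and 21.9 with Kuiyangling (log2 change 1.23, SE 0.30, edgeR adjusted p = 0.502). Controls held 25.3 and 40.8 CPM of Cry2 and 12.1 and 15.4 CPM of Per3, above both model libraries in each. Per2 was at 9.06 and 7.76 CPM in the DSS model, 13.4 and 26.7 with mesalazine and 22.4 and 21.8 with Kuiyangling (log2 change 1.32, SE 0.42, edgeR adjusted p = 0.617), with 13.97 and 37.1 CPM in controls. Arntl, which encodes Bmal1, the activator that peaks opposite to Dbp and the Per genes, was at 31.5 and 24.7 CPM in the DSS model, 12.5 and 17.5 with mesalazine and 17.8 and 21.3 with Kuiyangling (log2 change -0.71, SE 0.28, edgeR adjusted p = 0.776) and at 48.7 and 88.1 CPM in controls. Thus Arntl was highest in controls and lowest in treated mucosa, while the reverse order held for Dbp.

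**Figure D4:**
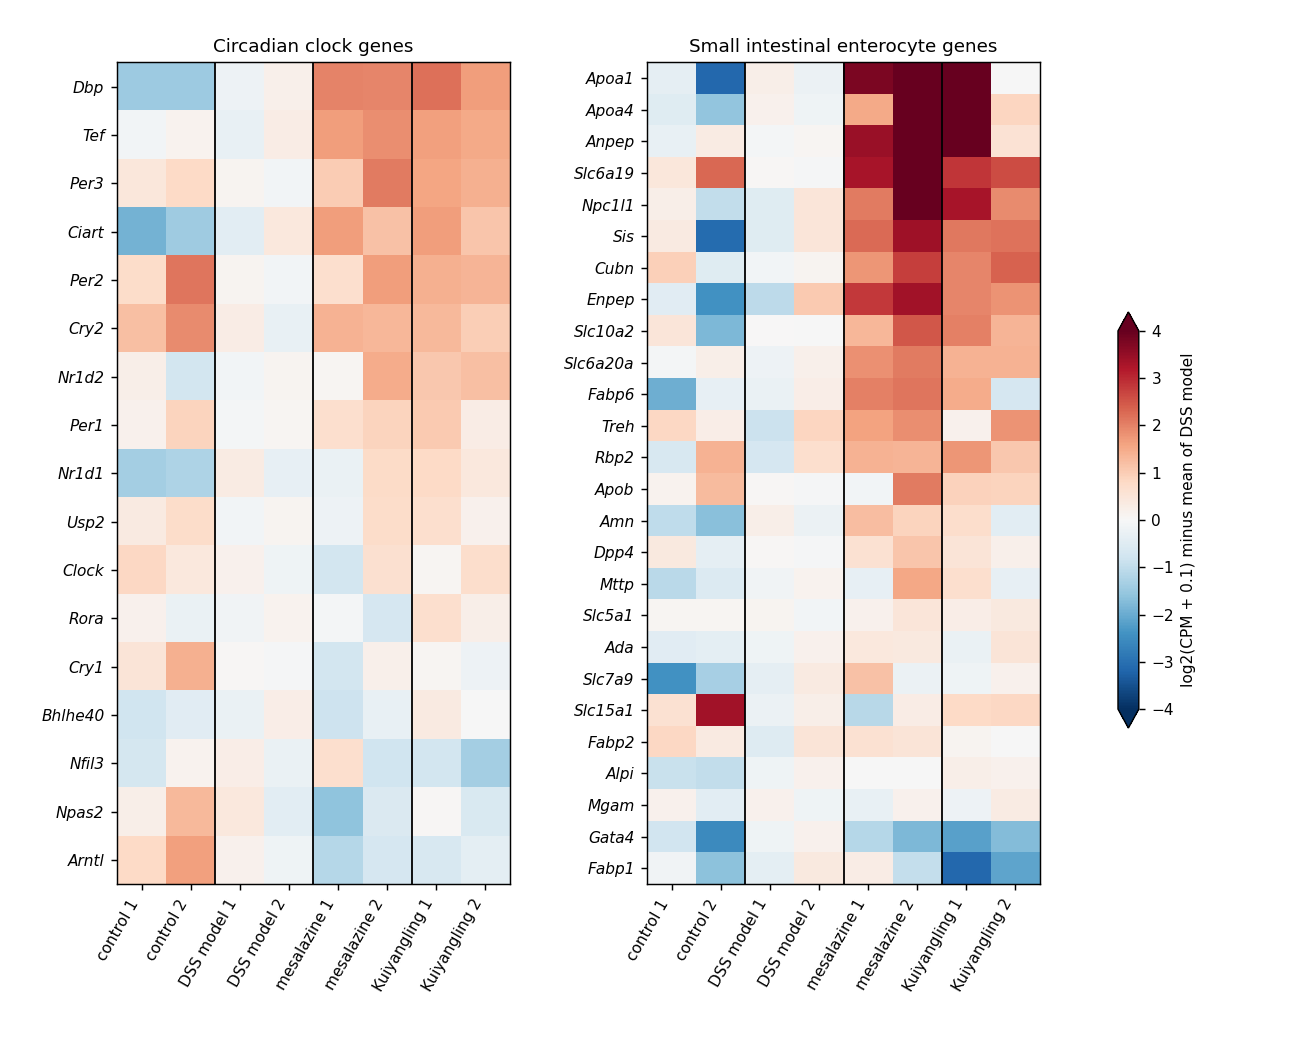
Log2(CPM + 0.1) of tested clock genes (left) and tested genes of a small intestinal list (right) in each library minus the mean of the 2 DSS model libraries, with colours ending at 4 in both directions and genes ordered by their estimate. Dbp, Tef, Per3 and Cry2 are red in all 4 treated libraries, Arntl is blue in all 4, and on the right Slc6a19, Cubn and Sis are red in all 4.

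Promoter windows of Tef, Per1, Ciart and Per3 are shown for their clock motifs, the E-box CACGTG and the D-box TTANGTAA, searched on both strands; these letters do not allow the motifs to overlap. The windows of 140 bases are chr15:81802473-81802612, plus strand, chr11:69098719-69098858, plus strand, chr3:95882229-95882368, minus strand, and chr4:151044766-151044905, minus strand (RefSeq, GRCm38.p6), 5′ to 3′, with matches in capitals.
Tef: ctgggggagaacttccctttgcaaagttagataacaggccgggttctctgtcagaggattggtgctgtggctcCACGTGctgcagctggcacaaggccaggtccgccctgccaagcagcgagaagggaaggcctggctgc
Per1: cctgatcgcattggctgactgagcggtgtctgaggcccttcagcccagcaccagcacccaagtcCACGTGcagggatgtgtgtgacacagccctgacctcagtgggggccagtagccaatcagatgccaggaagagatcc
Ciart: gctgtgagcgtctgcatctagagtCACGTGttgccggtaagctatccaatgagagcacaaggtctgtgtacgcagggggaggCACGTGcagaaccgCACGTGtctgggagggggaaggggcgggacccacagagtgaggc
Per3: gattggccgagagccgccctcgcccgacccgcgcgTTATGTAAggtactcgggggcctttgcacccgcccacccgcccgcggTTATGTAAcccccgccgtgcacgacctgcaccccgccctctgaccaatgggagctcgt
Tef and Per1 show 1 E-box each, Ciart 3 E-boxes and Per3 2 D-boxes. Of 17 clock genes with a window, 5 had an E-box in the 250 bases before their start (29.4%) and 1 a D-box (5.88%). Among 13606 genes of the table these shares were 7.67% and 1.50%. Of the 6 clock genes with a match, 4 were higher in all 4 treated libraries, and Cry1 and Bhlhe41 overlapped with the model.

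Slc6a19 and Cubn, proteins of the absorptive brush border, were among the genes with the smallest p. Slc6a19, the sodium-coupled carrier of neutral amino acids, stood at 1.64 and 1.52 CPM in the DSS model, 16.3 and 38.1 with mesalazine, 12.1 and 10.2 with Kuiyangling and 2.18 and 8.08 in controls (log2 change 3.46, SE 0.60, edgeR adjusted p = 0.214). The treated libraries of Slc6a19 were above both reference groups. Cubn, the endocytic receptor of the vitamin B12 and intrinsic factor complex, was at 3.46 and 4.04 CPM in the DSS model, 13.1 and 25.9 with mesalazine and 14.8 and 19.7 with Kuiyangling (log2 change 2.29, SE 0.47, edgeR adjusted p = 0.341), with controls at 7.28 and 2.65 CPM.

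A list of 30 genes of small intestinal enterocytes was then drawn up, after these values had been seen, and it is given as a description. Of the 30, 14 were higher in all 4 treated libraries and 2, Gata4 and Lct, lower, where 6.77% and 6.99% of all genes were. The late choice of the list bears on that count. The median log2 change of the 27 tested was 1.27 (1.37 with mesalazine and 0.91 with Kuiyangling). Anpep, aminopeptidase N, was at 4.15 and 4.57 CPM in the DSS model, 48.7 and 231 with mesalazine and 72.4 and 6.49 with Kuiyangling (log2 change 4.09, SE 0.98, edgeR adjusted p = 0.502). Sis, sucrase-isomaltase, was at 3.08 and 6.10 CPM in the DSS model, 21.1 and 46.1 with mesalazine and 19.2 and 20.04 with Kuiyangling (log2 change 2.49, SE 0.74, edgeR adjusted p = 0.584), and Slc10a2, the ileal bile acid carrier, at 54.9 and 53.7 CPM in the DSS model, 137 and 305 with mesalazine and 218 and 139 with Kuiyangling (log2 change 1.87, SE 0.58, edgeR adjusted p = 0.585). The spread within treated mice was large, with Kuiyangling 2 near the model for Anpep.

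Markers of position along the gut differed from the model in part and not alike in both treatments, and their part in the result was not tested. Hoxb13 was at 0.212 and 0.642 CPM with mesalazine against 12.9 and 2.98 CPM in the model, while Kuiyangling, at 5.88 and 23.2 CPM, overlapped with the model. Among 37 Hox genes, Hoxa2, Hoxa10 and Hoxa11 were lower in all 4 treated libraries (8.11%, against 6.99% of all genes). Higher were 9 (24.3%, against 6.77% of all genes), and the median was 0.31. Hoxa11 was at 12.5 and 10.9 CPM in the DSS model, 3.75 and 2.74 with mesalazine and 4.21 and 7.01 with Kuiyangling (log2 change -1.46, SE 0.31, edgeR adjusted p = 0.401), and Hoxa10 at 42.6 and 31.7 CPM in the DSS model, 5.59 and 13.8 with mesalazine and 11.9 and 26.998 with Kuiyangling (log2 change -1.43, SE 0.40, edgeR adjusted p = 0.580). Hoxb4 and Hoxb6, whose domains begin further forward in the body, were among the higher ones, at 3.52 and 4.77 CPM in the DSS model, 7.08 and 12.3 with mesalazine and 12.01 and 7.63 with Kuiyangling for Hoxb4 and 30.7 and 22.7 CPM in the DSS model, 46.002 and 57.3 with mesalazine and 45.3 and 33.1 with Kuiyangling for Hoxb6. Estimates were 1.23 and 0.75 (edgeR adjusted p = 0.896 and 0.9999).

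Genes that fasting and glucocorticoids induce were higher in part. Of 20 such genes 7 were higher in all 4 treated libraries and 0 lower, where 6.77% and 6.99% of all genes were. Of the estimates 5 were below 0, and the median of 0.43 was 0.65 without DSS model 1. Depp1, a FOXO target of fasted tissues, was at 1.38 and 0.928 CPM in the DSS model, 23.3 and 11.3 with mesalazine, 4.52 and 3.32 with Kuiyangling and 1.29 and 0.802 in controls (log2 change 2.82, SE 0.46, edgeR adjusted p = 0.199). It also had the smallest p between the treatments, with a log2 difference of -2.14 for Kuiyangling minus mesalazine (SE 0.46, edgeR adjusted p = 0.999). Sesn1, a stress-induced inhibitor of mTORC1, was at 12.01 and 16.4 CPM in the DSS model, 37.4 and 34.9 with mesalazine and 21.8 and 24.3 with Kuiyangling (log2 change 1.02, SE 0.24, edgeR adjusted p = 0.502). The metallothionein Mt2, a metal-binding protein, was at 44.3 and 161 CPM in the DSS model, 1087 and 392 with mesalazine and 274 and 339.6 with Kuiyangling (log2 change 2.21, SE 0.64, edgeR adjusted p = 0.580). Kuiyangling libraries were thus between model and mesalazine for Depp1 and Sesn1. Fkbp5 and Tsc22d3, classic glucocorticoid-induced genes, overlapped, at 326 and 224 CPM in the DSS model, 504 and 398 with mesalazine and 393 and 219 with Kuiyangling for Fkbp5 and 55.98 and 30.4 CPM in the DSS model, 40.9 and 47.8 with mesalazine and 38.9 and 37.1 with Kuiyangling for Tsc22d3.

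Stem cell genes and targets of Wnt, the signal that maintains the crypt base, were higher in part. Of 22 genes 7 were higher in all 4 treated libraries and 0 lower, where 6.77% and 6.99% of all genes were. The median log2 change was 0.50, with 0.26 without DSS model 1 and 0.87 without DSS model 2. Rnf43, a Wnt-induced ligase that removes Wnt receptors, was at 14.3 and 15.4 CPM in the DSS model, 25.1 and 28.4 with mesalazine, 30.6 and 26.6 with Kuiyangling and 29.04 and 29.3 in controls (log2 change 0.90, SE 0.22, edgeR adjusted p = 0.502). All 4 treated libraries of Rnf43 were at about the level of the controls. Axin2, the feedback inhibitor of the pathway, was at 2.39 and 8.22 CPM in the DSS model, 10.2 and 13.9 with mesalazine and 13.5 and 16.1 with Kuiyangling (log2 change 1.33, SE 0.43, edgeR adjusted p = 0.635), with controls at 26.5 and 23.2 CPM. Lgr5, the receptor that marks crypt base stem cells, was at 0.314 and 3.45 CPM in the DSS model, 5.45 and 6.42 with mesalazine and 4.58 and 6.75 with Kuiyangling (log2 change 1.63, SE 0.70, edgeR adjusted p = 0.842). DSS model 1 had only 0.314 CPM of Lgr5, and DSS model 2 lay nearer the treated libraries. Of 24 cell cycle genes, 0 were outside the model's range in the same direction in all 4 treated libraries, but this rested on both model libraries. Without DSS model 1, 14 of the 24 were lower, where 16% of all genes were, and without DSS model 2, 13 of the 24 were higher, where 19.7% of all genes were.

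Lipid genes went both ways. Of 22 genes of lipid and cholesterol handling 4 were lower in all 4 treated libraries and 4 higher, where 6.99% and 6.77% of all genes were. Abca1, which exports cholesterol to apolipoprotein A1, was at 2.14 and 3.65 CPM in the DSS model, 8.99 and 14.2 with mesalazine and 11.1 and 10.2 with Kuiyangling (log2 change 1.95, SE 0.37, edgeR adjusted p = 0.261), with controls at 5.05 and 6.66 CPM. Sqle, squalene epoxidase of cholesterol synthesis, was at 176 and 160.4 CPM in the DSS model, 94.9 and 109 with mesalazine and 113 and 152 with Kuiyangling (log2 change -0.54, SE 0.22, edgeR adjusted p = 0.827). Abca1 and Sqle, for export and synthesis of cholesterol, were thus on opposite sides of the model. In the list of PPAR and fatty acid oxidation genes 5 of 23 were higher and 4 lower, with Ppara, the nuclear receptor, at 32.1 and 30.9 CPM in the DSS model, 55.6 and 72.4 with mesalazine and 60.2 and 51.8 with Kuiyangling (log2 change 0.93, SE 0.31, edgeR adjusted p = 0.641) and Acadl, long-chain acyl-CoA dehydrogenase, at 493 and 325 CPM in the DSS model, 227 and 243 with mesalazine and 297 and 229 with Kuiyangling (log2 change -0.72, SE 0.25, edgeR adjusted p = 0.686).

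Enzymes of drug metabolism were higher where they differed. Of 28 genes 5 were higher in all 4 treated libraries and 0 lower, where 6.77% and 6.99% of all genes were. Their median was 0.30. Cyp3a13, a cytochrome P450 of the gut, was at 187 and 266 CPM in the DSS model, 542 and 686 with mesalazine and 424 and 316 with Kuiyangling (log2 change 1.08, SE 0.30, edgeR adjusted p = 0.580). Cyp4b1, a cytochrome P450 outside that list, was at 10.5 and 22.7 CPM in the DSS model, 74.4 and 89.9 with mesalazine and 44.3 and 42.8 with Kuiyangling (log2 change 1.85, SE 0.35, edgeR adjusted p = 0.261), and Sult1a1, a phenol sulfotransferase, at 149 and 149.9 CPM in the DSS model, 328 and 318 with mesalazine and 217 and 180.5 with Kuiyangling (log2 change 0.76, SE 0.23, edgeR adjusted p = 0.584). Mesalazine libraries were above Kuiyangling libraries in these 3 genes. The unadjusted edgeR p of that difference was 0.0514 for Cyp3a13, 0.0306 for Cyp4b1 and 0.0201 for Sult1a1, with adjusted p = 0.999 for each.

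The other higher genes among the 24 belong to no list. Vav3, a guanine nucleotide exchange factor of the Vav family, was at 7.11 and 10.9 CPM in the DSS model, 27.2 and 29.3 with mesalazine and 19.1 and 21.9 with Kuiyangling (log2 change 1.42, SE 0.32, edgeR adjusted p = 0.502). Rsad1, a radical SAM enzyme, was at 4.28 and 4.97 CPM in the DSS model, 8.21 and 19.3 with mesalazine and 17.1 and 13.9 with Kuiyangling (log2 change 1.66, SE 0.38, edgeR adjusted p = 0.502), and Cbx7, a Polycomb chromobox protein, at 13.9 and 13.7 CPM in the DSS model, 31.7 and 28.4 with mesalazine and 23.5 and 22.6 with Kuiyangling (log2 change 0.93, SE 0.22, edgeR adjusted p = 0.502). In Cbx7 the replicates of each group differed by less than 4 CPM, and controls, at 20.7 and 20.2 CPM, lay between the model and the treated libraries.

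Absorptive genes of the colon itself were mixed. Of 28 colonocyte genes 2 were lower in all 4 treated libraries and 3, Car1, Scnn1g and Slc12a2, higher. These shares, 7.14% and 10.7%, were near the 6.99% and 6.77% of all genes. Estimates were above 0 for 17 genes, with a median of 0.21 that was -0.015 without mesalazine 2. Aqp4, a water channel of the basolateral membrane, was at 864 and 586 CPM in the DSS model, 158 and 187 with mesalazine and 204 and 611 with Kuiyangling (log2 change -1.45, SE 0.38, edgeR adjusted p = 0.530). Kuiyangling 2 lay between the 2 model libraries for Aqp4, and the other 3 treated libraries were far below both. Slc51a, a subunit of the basolateral bile acid exporter, was at 136 and 179.7 CPM in the DSS model, 498 and 305 with mesalazine and 369.8 and 155 with Kuiyangling (log2 change 1.04, SE 0.39, edgeR adjusted p = 0.738). Car1, the carbonic anhydrase, was at 7816 and 9119 CPM in the DSS model, 10462 and 11404 with mesalazine and 12515 and 9178 with Kuiyangling (log2 change 0.36, SE 0.39, edgeR adjusted p = 0.9999), above the model in all 4 treated libraries.

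Markers of other cell types in the mucosa were less separated. Of 15 endothelial genes 2 were higher in all 4 treated libraries and 0 lower, and the median of 0.72 was -0.017 without DSS model 1. Of 24 monocyte and macrophage markers 3 were lower and 1, Adgre1, higher, where 6.99% and 6.77% of all genes were. Their median of 0.12, with 13 of 23 tested estimates above 0, turned below 0 in 4 alternatives and was -0.33 without mesalazine 1. The lower ones included Ccl2, a monocyte chemokine, at 2.58 and 12.001 CPM in the DSS model, 1.49 and 0.700 with mesalazine and 0.867 and 1.71 with Kuiyangling (log2 change -2.61, SE 0.84, edgeR adjusted p = 0.622), and Cd14, the endotoxin co-receptor, at 94.3 and 69.2 CPM in the DSS model, 67.2 and 36.2 with mesalazine and 34.8 and 40.6 with Kuiyangling (log2 change -0.89, SE 0.28, edgeR adjusted p = 0.601). T and NK cell markers had 0 lower and 2 higher of 17 (median 0.53), smooth muscle genes 0 lower and 1 higher of 17, and matrix genes 0 lower and 1 higher of 32, the latter being Lox, lysyl oxidase, at 0.818 and 1.06 CPM in the DSS model, 3.82 and 2.33 with mesalazine and 4.39 and 2.23 with Kuiyangling (log2 change 1.76, SE 0.53, edgeR adjusted p = 0.585). Without DSS model 2, 11 of the 17 T and NK cell markers and 12 of the 32 matrix genes were higher, where 19.7% of all genes were, and without DSS model 1, 10 of the 32 matrix genes were lower, where 16% of all genes were. How far the shares of these cells contribute to the gene groups above was not tested.

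Of 20 goblet cell genes 3 were lower in all 4 treated libraries and 0 higher, where 6.99% and 6.77% of all genes were. Their median was -0.39, and -0.05 without DSS model 1. Clca1, a secreted goblet cell protein, was among the lower ones. It was at 850.4 and 989 CPM in the DSS model, 452 and 427 with mesalazine and 762 and 739 with Kuiyangling (log2 change -0.68, SE 0.40, edgeR adjusted p = 0.9999). The mucin Muc2 overlapped, at 9660.3 and 7499 CPM in the DSS model, 9067 and 3950.3 with mesalazine and 6459.8 and 5050.0 with Kuiyangling (log2 change -0.49, SE 0.38, edgeR adjusted p = 0.9999). All 25 oxidative phosphorylation genes had an estimate below 0, with a median of -0.16 that was 0.01 without mesalazine 2, and 3 of them were lower in all 4 treated libraries. That number was 24 of 25 without mesalazine 1, the library rich in ribosomal protein RNA, where 16.4% of all genes were lower.

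The remaining lists held few separated genes, and over all genes the shares were 6.99% lower and 6.77% higher. Of 21 immediate early genes 4 were lower and 0 higher (median -0.44), and of 14 eosinophil and mast cell markers 3 were lower and 0 higher. B and plasma cell markers had 2 of 14 lower and 2 higher, and their median of -0.71 was 0.15 without DSS model 2. Among adipocyte genes 1 of 10 was lower. Cfd, the complement factor adipsin, overlapped, with 42 counts in the model and 6 in the treated libraries (ratio 15.1, 95% counting interval 6.37 to 43.4). The model counts of Cfd came mainly from DSS model 1, at 2.52 CPM against 0.133 CPM in DSS model 2. Both mesalazine libraries, at 0.142 and 0.233 CPM, were above DSS model 2. Of 19 enteric neuron and glia genes 1 was lower and 1 higher, and of 13 erythroid and skeletal muscle genes 0 were lower and 1 higher. Of 102 genes with a ribosomal protein name, 0 were lower and 2 higher, 1 of them Rps6ka5, a kinase with a similar name. Without DSS model 2, 58 of the 102 were higher, where 19.7% of all genes were.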

How the data were processed

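RNA of colonic mucosa was sequenced in 8 libraries. Per the labels' protocols, a mirVana kit served for extraction, samples were kept at an RNA integrity number of at least 7, and the library kit was TruSeq Stranded mRNA. The authors deposited raw counts per gene, with Trimmomatic and HISAT2 named per the submitters' processing notes; build, annotation, counter and strand setting are not given in the sources used here. The deposited FPKM equal those counts divided by 1 length per gene and the library total. The columns of the mesalazine group are spelled in 2 ways and were assigned by their number.

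Counts were tested with edgeR 4.0.16 in R 4.3.3: filterByExpr, TMM, 1 mean per group over all 8 libraries, and the quasi-likelihood test of the mean of both treatments minus the DSS model. Benjamini-Hochberg adjustment ran over 13381 genes, with a threshold of 0.05. DESeq2 1.42.0 and limma 3.58.1 on log2(FPKM + 0.5) were alternatives. The script was tested on simulated data for the treated against model comparison (13207 genes, 50 changed per size): it recovered 12% of 2-fold, 96% of 4-fold, 96% of 8-fold and 100% of 16-fold changes, with 9 false calls. Simulated counts were drawn independently for each gene, without the differences between libraries in ribosomal protein share and gene length. These rates therefore need not hold for the real libraries. CPM use TMM-adjusted library sizes, and count ratios have exact 95% intervals for counting error only.

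Named genes were the 12 lower and 12 higher with the smallest p among tested genes with an established symbol, a mean of at least 5 CPM and no overlap, then the 2 smallest p of each of 32 lists, and a panel of 20. Other genes named, and the small intestinal, Hox, Slc6, Phf11 and ribosomal protein lists, were chosen after their values were seen. Members and lists were chosen with earlier results of these data known. List counts without 1 library were added after the data were seen. Promoter windows came from RefSeq (GRCm38.p6) by gene symbol. Some genes that these rules select are not reported here and not drawn, but they are in all counts and medians.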

Additional observations from a re-analysis of the deposited data

Results flagged for a closer look

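Each of 37 gene lists and 88 named genes was looked at for 1 treated library far from the other 3, by its gap to the nearest divided by the range of the 4, against Dixon's 95% critical value for 4 samples. Chance exceeds this in about 1 of 20 groups. Among the named genes 0 exceeded it, and among the lists 4 did. For neutrophil markers mesalazine 1 was the highest treated library, with a ratio of 0.841. For MHC class II and antigen presentation genes Kuiyangling 1 was the highest (0.923). For extracellular matrix genes mesalazine 2 was the lowest (0.931), and for lipid and cholesterol genes Kuiyangling 2 was the highest (0.875). Of the 88 named genes, 0 had both libraries of 1 treatment above both model libraries and both of the other treatment below them. Most of these genes were chosen by a small p between pooled treated and model libraries or for no overlap. That choice largely excluded such a pattern beforehand, so the 0 cannot show whether the treatments differ in direction.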

How the results depend on the processing

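Calls by edgeR were 0 in each comparison under RLE scaling, the length correction, the 6 DSS libraries alone, the replicate block, limma on FPKM, and with each library left out. They became 104 without the filter and 68 with DESeq2 for treated against model, 104 and 84 for mesalazine, 11 and 13 for Kuiyangling, and 3 without the filter between the treatments. The cause was not tested. The 128 lower genes with a log2 change of at least 1 in each treatment became 237 without the filter, 60 with limma on FPKM and 1038 with no minimum, and 115 to 218 with 1 library left out. The 207 higher genes became 344, 53 and 1007, and 193 to 608 with 1 library left out.

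Most named genes were chosen by a small p or for no overlap in these same libraries, so a stable sign was partly fixed beforehand. Estimates of 80 of 88 tested named genes had the same sign in every alternative. For the other 8 the log2 change with 1 library left out ran from -1.54 to 0.035 for Jchain and from -1.86 to 0.036 for Ptgs2 (both highest without DSS model 2), and from -1.16 to 0.097 for Creb3l1, -0.81 to 0.11 for Syp and -0.33 to 1.59 for Hbb-bs (with the change of sign without DSS model 1). It ran from -0.036 (without mesalazine 1) to 0.70 for Mylpf, from -0.18 (without mesalazine 2) to 0.56 for Slc26a3, and from -1.12 (without mesalazine 1) to 0.98 for Lcn2. Lcn2 was also -0.062 with limma and -0.36 with the replicate block. Medians of 21 of 32 lists kept their sign in every alternative.

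Replicate numbers did not pair the samples: same-numbered deviations correlated at -0.31 between model and mesalazine, 0.01 between model and Kuiyangling and 0.16 between the treatments. With the replicate block, 126 lower and 210 higher genes met the size minimum. Genes near the floor of 3 counts carry little information, and 2-fold changes were mostly missed in simulation.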

Other observations

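Among the genes with the smallest p between the treatments were genes of the colonic epithelium. Tgm3, a transglutaminase of differentiated surface epithelium, was at 116 and 1479 CPM in controls, 13.1 and 4.18 CPM in the DSS model, 0.849 and 1.63 with mesalazine and 12.3 and 69.2 with Kuiyangling. The log2 difference of Kuiyangling minus mesalazine was 5.01 (SE 1.27, edgeR adjusted p = 0.999). Nxpe4 was at 26.6 and 149.9 CPM in controls, 6.98 and 7.56 CPM in the DSS model, 0.920 and 3.44 with mesalazine and 11.8 and 26.9 with Kuiyangling (log2 difference 3.12, edgeR adjusted p = 0.999). Insl5, a hormone of enteroendocrine cells of the distal colon, was at 16.4 and 37.7 CPM in controls, 14.97 and 6.17 CPM in the DSS model, 2.12 and 2.28 with mesalazine and 6.25 and 18.2 with Kuiyangling (log2 difference 2.47, edgeR adjusted p = 0.999). For Tgm3, Nxpe4 and Insl5 both mesalazine libraries were the lowest of the 8, and control 2 was the highest.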
